A study of Mus musculus with 3 samples.

Results

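The genes described here code for the proteins that coat intracellular lipid droplets and for the enzymes that break down the triglyceride inside them, with the protein inhibitor of the first of these enzymes. There were 10 of them: the perilipins Plin2, Plin3, Plin4 and Plin5, the droplet proteins Cidea and Cidec, the lipases Pnpla2, Lipe and Mgll, and the lipase inhibitor G0s2. They were found by matching the accession of every non-control probe to its gene, which gave 14 of 39429 probes. All 10 genes were well above background and were tested, among 17454 genes in all.

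The RNA came from lower-limb skeletal muscle of control mice and of mFoxO1KO mice, which carried an inducible deletion of Foxo1, a forkhead transcription factor gene, restricted to skeletal muscle. All mice were C57BL/6 males, and both genotypes ate a diet with doxycycline (0.625 g/kg) from 8 to 14 weeks of age, so the controls had the drug as well. The transgene that drove the deletion is not given in the sources used here, and cells other than muscle fibres in the tissue were not its target. Each of 3 Agilent whole-mouse arrays held the RNA of 1 control replicate in Cy3 and of 1 mFoxO1KO replicate in Cy5, and no array had the dyes swapped, so that a dye effect of a single probe and a genotype effect cannot be told apart. Values are log2 ratios of mFoxO1KO over control, where 1 is a doubling and 0 no difference, given for each array and as mean ± SD over the 3 arrays.

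Between 53.1% and 57.9% of spots were well above background in a channel, and none was saturated. The number of arrays limits the precision. The Foxo1 probe used for the test had ratios of -1.50, -2.42 and -2.27 on arrays 1, 2 and 3, a mean of 23.9% of the control level (limma, adjusted p = 0.0277, and 0.106 without array 2). The other Foxo1 probe had -0.70, -1.64 and -1.84, a mean of 38.1% of the control level (limma over all probes, adjusted p = 0.0535, not past the threshold). It is not known here if the targeted exons include the sequences of these probes. The 15 tested markers of muscle fibres had a median ratio of 0.02. Of their means 8 lay above 0 and 7 below, from -0.60 to 0.57. Ckm, muscle creatine kinase, given as an example near 0, had 0.07 ± 0.06.

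Muscle fibres keep a small reserve of triglyceride in droplets beside their mitochondria, and fat cells of the tissue keep far larger ones. Perilipins cover the droplet surface and govern the access of lipases to it. Triglyceride is cut in sequence by Pnpla2 (adipose triglyceride lipase), which starts the process, by Lipe (hormone-sensitive lipase), which prefers diglyceride, and by Mgll (monoglyceride lipase). Plin2 and Plin5 are the perilipins known for oxidative tissues, and Cidea and Cidec, which enlarge droplets by fusing them, are known mainly from brown and white fat. Several of these genes are known targets of the nuclear receptors of the PPAR family, and FoxO1 is known as a regulator of Pnpla2 in fat cells.

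All 10 genes had mean ratios above 0, from 0.23 for Plin4 to 3.12 for Cidea, with a median of 0.47 against 0.01 over all genes tested. One of the 10, Plin5, passed an adjusted p of 0.05 (limma over all genes), while 2.76% of all genes passed, 2.06% higher and 0.699% lower. Ratios were above 0 on all 3 arrays for 8 of the 10 genes, which was so for 27.9% of all genes. The exceptions were G0s2 and Mgll. The lowest ratio fell on array 2 for 8 of the 10 genes, as it did for 32.4% of all genes. In 6 of the 10 genes the lowest of the 3 mFoxO1KO values lay above the highest of the 3 control values, which held for 13.9% of all genes. These 6 were Plin2, Plin5, Cidea, Cidec, Pnpla2 and Lipe. The labels call the samples biological replicates.

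**Figure D1:**
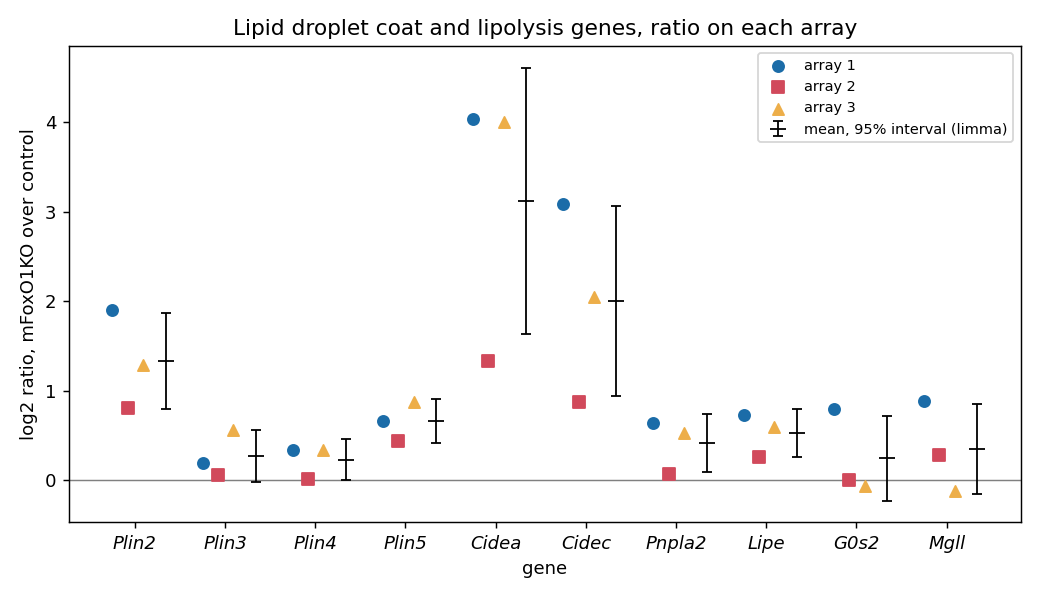
Log2 ratio of mFoxO1KO over control (vertical axis) for the 10 lipid droplet coat and lipolysis genes on each of the 3 arrays (points), with the mean and its 95% interval from limma (bar and whiskers, 3 arrays). Cidea and Cidec had the highest means, 3.12 and 2.00, and 8 of the 10 genes had their lowest ratio on array 2.

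Plin5, the perilipin that ties droplets to mitochondria in oxidative tissue, was 1.58-fold higher in mFoxO1KO muscle. On a scale of normalised log2 intensity per RNA, the controls had 12.29, 12.40 and 12.20 on arrays 1, 2 and 3, and the mFoxO1KO samples 12.95, 12.84 and 13.07. The groups did not overlap, and the controls spanned 0.20 log2 units. The ratios were 0.66, 0.45 and 0.87, with a mean of 0.66 ± 0.21 (SD, n = 3) and a limma adjusted p of 0.0490, just past the threshold. Plin5 passed in 7 of 17 alternative analyses, with adjusted p from 0.00447 to 0.265. Among the 7 was a fit of the separate channels with the array as block, which repeats the reported fit by construction. The 17 also count the software's processed signals and the deposited log ratios, which give the same values. Plin5 passed in none of those that left out 1 array (0.0718 without array 1, 0.127 without array 2 and 0.0809 without array 3).

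Plin2, the perilipin found on droplets of most cell types, had the larger ratio of these 2 but the wider spread. Control values were 10.57, 11.08 and 10.66 and mFoxO1KO values 12.47, 11.89 and 11.95 log2 units, without overlap. The pair on array 1 differed most and the pair on array 2 least. The ratios of 1.90, 0.81 and 1.29 gave a mean of 1.33 ± 0.55, or 2.52-fold with a 95% interval of 1.73 to 3.66 (limma, adjusted p = 0.0510, just short of the threshold). Plin2 passed in 6 of 17 alternative analyses (adjusted p from 0.000554 to 0.282). One of them was the analysis without array 1, where its ratio was 1.05 and its adjusted p 0.0448.

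The stretches of DNA upstream of Plin2, Plin5 and Mgll are shown because their windows hold 1 of the motifs searched. The promoter windows come from RefSeq (build GRCm38.p6), and 9 of the 10 genes matched, with 13 windows. The name not matched was Cidea. Capitals mark the hexamer AGGTCA, which PPARs and other nuclear receptors bind, or the FoxO motif GTAAACA, on either strand. Bases inside the annotated gene are left out, which shortens the stretch to 92 bases for Plin2 and 192 for Plin5, and a Lipe window with the FoxO motif is not shown because it lies within the gene.
Plin2, chr4:86670218-86670309, minus strand: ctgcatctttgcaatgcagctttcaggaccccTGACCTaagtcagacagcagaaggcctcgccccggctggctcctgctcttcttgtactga
Plin5, chr17:56117607-56117798, minus strand: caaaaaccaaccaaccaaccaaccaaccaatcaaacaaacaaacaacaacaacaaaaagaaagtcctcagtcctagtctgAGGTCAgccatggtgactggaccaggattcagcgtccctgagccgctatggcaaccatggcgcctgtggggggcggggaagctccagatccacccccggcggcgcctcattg
Mgll, chr6:88724162-88724411, plus strand: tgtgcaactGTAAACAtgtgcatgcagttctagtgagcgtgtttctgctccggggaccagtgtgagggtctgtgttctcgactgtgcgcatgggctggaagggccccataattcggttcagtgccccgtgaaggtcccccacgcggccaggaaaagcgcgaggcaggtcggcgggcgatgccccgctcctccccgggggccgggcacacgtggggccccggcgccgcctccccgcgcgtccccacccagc

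Within the 250 bases upstream of the transcript start to which each window belongs, counted from that start and not from the end of the stretch shown, the hexamer was found for Plin2 (218 to 213 bases upstream, on the opposite strand) and Plin5 (170 to 165 bases upstream, on the gene's strand). Of all 32851 windows 14.0% hold it. An exact direct repeat of the hexamer with 1 base between the copies, the full PPAR response element, was searched on both strands. It was in no window of these genes and in 0.0335% of all windows. Elements with other letters or beyond the 250 bases were not searched, so this does not show that the genes lack one. GTAAACA was found for Mgll (241 to 235 bases upstream) and for 1 of the 2 Lipe starts (119 to 113 bases upstream), against 3.17% of all windows. These matches describe the letters in the windows and do not show binding.

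Plin3 and Plin4 had small ratios. Plin3, which moves between the cytosol and nascent droplets, had 0.19, 0.06 and 0.57, with a mean of 0.27 ± 0.26 (limma, adjusted p = 0.202). Plin4, a perilipin abundant in fat and also made in muscle, had 0.34, 0.01 and 0.34, with a mean of 0.23 ± 0.19 (adjusted p = 0.181). In both genes control and mFoxO1KO values overlapped. The 4 perilipin genes thus differed in the size of their ratios, from 0.23 to 1.33, although Plin4 and Plin5 are neighbours on chromosome 17. Whether the ratios of 2 genes differ was not tested.

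Cidea, a droplet-fusing protein of brown fat, had the highest mean ratio of all 17454 genes tested. Its control values were 8.35, 8.35 and 9.22 log2 units and its mFoxO1KO values 12.39, 9.68 and 13.22. The groups did not overlap, but the mFoxO1KO sample on array 2 lay far below the other 2. The ratios of 4.035, 1.33 and 4.004 are 16.4-fold, 2.51-fold and 16.04-fold, with a mean of 3.12 ± 1.55 (8.71-fold, 95% interval 3.11 to 24.4, limma adjusted p = 0.0632, not past the threshold). Without array 2 the ratio was 4.02 and passed (limma, adjusted p = 0.0200). It did not pass without array 1 (2.67, adjusted p = 0.108) or without array 3 (2.68, adjusted p = 0.116). Cidea passed in 2 of 17 alternative analyses (adjusted p from 0.000157 to 0.305).

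Cidec, the corresponding protein of white fat, had control values of 11.47, 12.09 and 12.22 and mFoxO1KO values of 14.55, 12.97 and 14.27 log2 units. Again the groups did not overlap and the pair on array 2 was the closest. The ratios of 3.08, 0.88 and 2.05 had a mean of 2.00 ± 1.105 (4.01-fold, 95% interval 1.92 to 8.38, limma adjusted p = 0.0736). Its other probe had 2.17, 0.67 and 1.45, in the same order over the arrays. Cidec was the 6th highest of all genes by mean ratio.

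**Figure D2:**
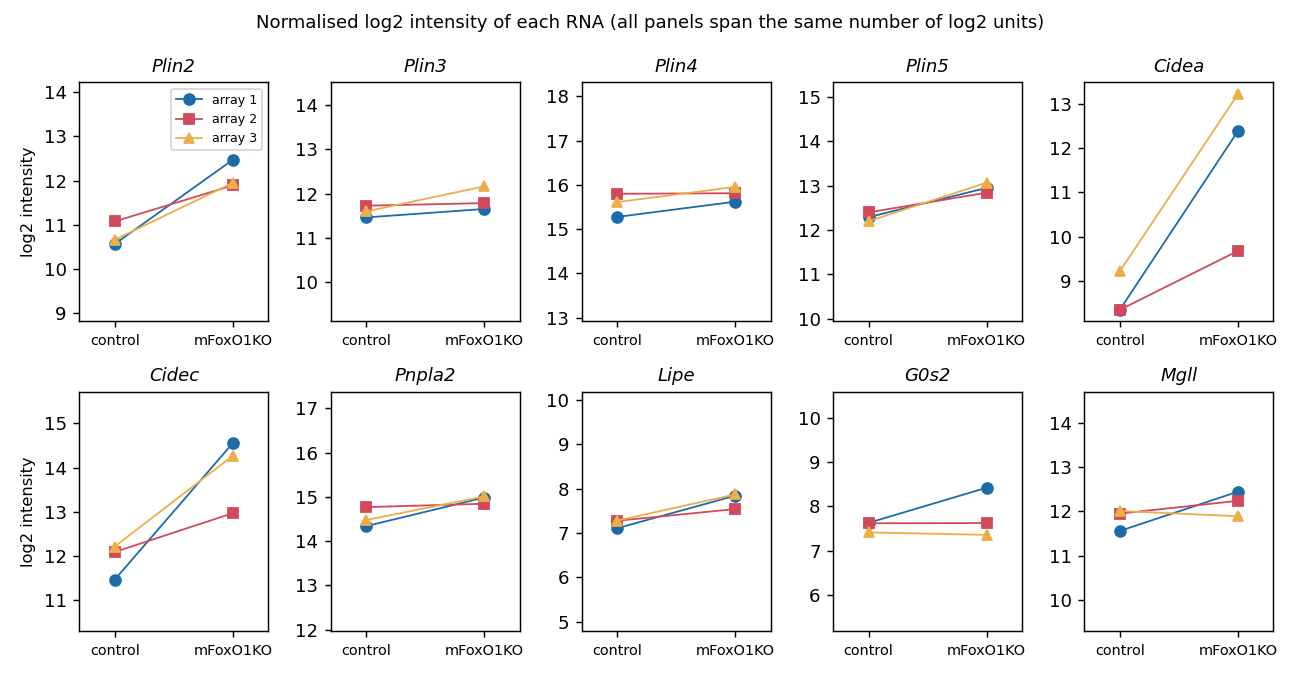
Normalised log2 intensity (vertical axis) of each control and mFoxO1KO RNA for the 10 genes, with a line joining the 2 RNAs of an array. Every panel spans the same number of log2 units. Plin2, Plin5, Cidea, Cidec, Pnpla2 and Lipe showed no overlap between the groups, and the array 2 line was the flattest for Cidea and Cidec.

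Among the lipases, Pnpla2 had control values of 14.34, 14.77 and 14.48 and mFoxO1KO values of 14.98, 14.85 and 15.01 log2 units. The 2 values on array 2 were almost equal. Its ratios were 0.65, 0.08 and 0.53, with a mean of 0.42 ± 0.30 (1.34-fold, 95% interval 1.07 to 1.67, limma adjusted p = 0.123). Lipe had 0.74, 0.26 and 0.59, with a mean of 0.53 ± 0.24 (1.44-fold, adjusted p = 0.0685). Its spots were dim, with median signals of 109.5 to 137 in the control channel. Both lipases were thus higher on every array, by less than Cidea or Cidec, and neither passed the test.

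Mgll and G0s2 had ratios on both sides of 0. Mgll had 0.89, 0.29 and -0.12, with a mean of 0.35 ± 0.51 (limma, adjusted p = 0.306). Its other probes above background had means of 0.34 and 0.14, also highest on array 1 and lowest on array 3, and a further Mgll probe was not well above background. G0s2, the inhibitor of Pnpla2, had 0.79, 0.01 and -0.06, with a mean of 0.25 ± 0.47 (limma, adjusted p = 0.426). Its spots were dim, with median signals of 131.5 to 166 in the control channel. Without array 1 the mean was -0.02 for G0s2 and 0.09 for Mgll, so the positive G0s2 mean came from that array.

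The 3 arrays differed in how far these genes stood above the control, and markers of white fat cells differed with them. The median ratio of the 10 genes was 0.76, 0.28 and 0.58 on arrays 1, 2 and 3. Over 19 tested markers of white adipocytes outside the 10 genes it was 1.49, 0.04 and 0.59. None of these markers passed the test (2.76% of all genes did), and 16 had means above 0 (51.7% of all genes did). Of the 19, 16 were highest on array 1 and 16 were lowest on array 2. Among all 17454 genes, 6962 were highest on array 1, and 32.4% were lowest on array 2. Adipoq, the fat-cell hormone adiponectin, had 2.93, 0.22 and 1.87. Plin1, the perilipin of fat cells, had 2.85, 0.04 and 1.80. Fabp4, the fatty acid binding protein of fat cells, had 1.49, -0.03 and 0.52. These 3 were chosen after their values were seen.

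The summed normalised intensity of the 19 white adipocyte markers ran from 113648 to 172772 in the controls and from 171707 to 272387 in the mFoxO1KO samples. The control on array 2 had the highest control sum (172772), next to the 171707 of the mFoxO1KO sample on that array. The sums on arrays 1 and 3 were 113648 against 272387 and 136996 against 227517. Gpd1, a glycerol phosphate dehydrogenase gene (-0.03 ± 0.08), made up 62.7% of the control sum on array 1. Without Gpd1 the sums for control and mFoxO1KO were 42339 against 200037 on array 1, 98026 against 102688 on array 2 and 64661 against 154442 on array 3. Fabp4 and Cfd were the brightest of the remaining markers in every sample, so they weigh most in these sums. On array 1 Fabp4 had 14.71 log2 units in the control and 16.20 in the mFoxO1KO sample, and Cfd had 12.95 and 16.44. All 19 markers were well above background in every control, and Lep, the leptin gene, was not tested because it was not. In tissue RNA of this kind, more fat cells and more RNA of these genes per cell cannot be told apart. The part of fat tissue in the ratios was not tested.

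On array 2 the 19 white adipocyte markers ran from -0.32 for Cebpa to 0.54 for Agt, both chosen after their values were seen, and this range held 7 of the 10 genes. Cidea (1.33), Cidec (0.88) and Plin2 (0.81) lay above it and ranked 63rd, 198th and 239th of 17454 genes on that array. Plin5 (0.45, ranked 869th) was below Agt and above the other 18 markers. Mgll (0.29) and Lipe (0.26) came next. Plin3, Plin4, Pnpla2 and G0s2 lay between 0.01 and 0.08. In all, 6 of the 10 genes were at least 1.2-fold higher on array 2, against 3 of 19 white adipocyte markers and 11.2% of all genes. On array 1 the counts were 9 of 10 and 16 of 19, against 18.6% of all genes. Array 2 holds 1 sample of each genotype, so these are values without a test. The brown fat markers described next had medians of 0.17, 0.36 and 0.54 on arrays 1, 2 and 3.

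**Figure D3:**
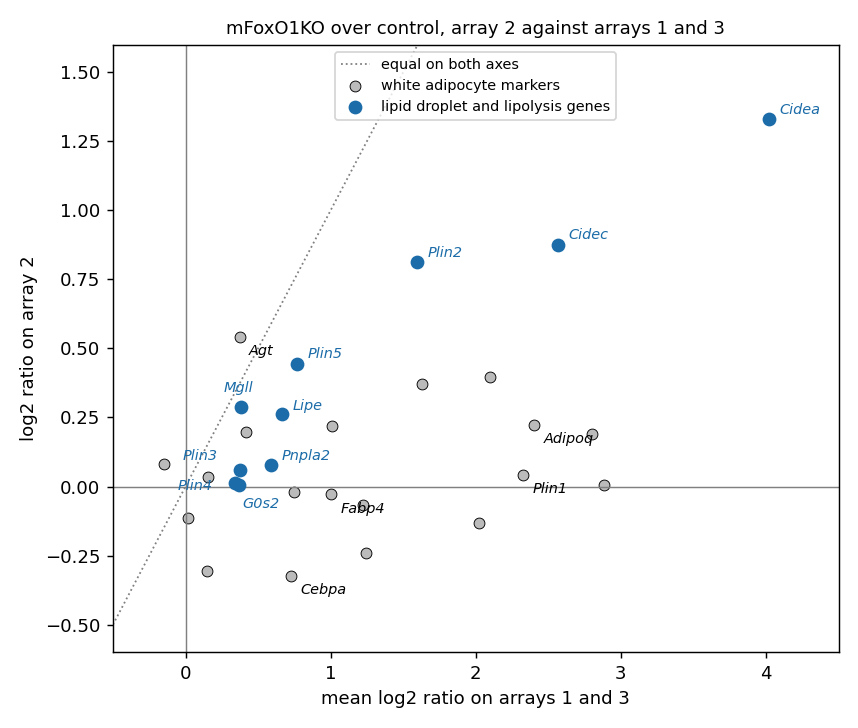
Log2 ratio of mFoxO1KO over control on array 2 (vertical axis) against the mean ratio on arrays 1 and 3 (horizontal axis) for the 10 genes (filled, named) and 19 white adipocyte markers (grey, 5 named). The axes have different scales and the dotted line marks equal ratios. On array 2 Cidea, Cidec and Plin2 lay between 0.81 and 1.33, above all 19 markers, while the other 7 genes lay within the range of the markers, from -0.32 (Cebpa) to 0.54 (Agt).

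Brown fat markers had ratios on both sides of 0. Of 13 listed, 9 were tested. The lowest ratio fell on array 2 for 4 of the 9, as it did for 32.4% of all genes. Of the 9 tested 2 rose (2.06% of all genes did) and none fell, with a median of 0.18. Those that rose were Pank1, a kinase gene of coenzyme A synthesis (0.85 ± 0.14), and Slc27a2, a fatty acid transporter and acyl-CoA synthetase gene (1.23 ± 0.38, limma adjusted p = 0.0400). Without array 2 neither passed (adjusted p of 0.0740 and 0.136), nor did Pank1 without array 3 (0.0521). Neither is restricted to brown fat. Slc27a2 was well above background in 3 mFoxO1KO samples but in 1 control only, so it entered the test through the group where it was high, and its ratio was 3.24 with the software's processed signals. On array 2 Slc27a2 had 1.02 and Pank1 0.70. Slc36a2, an amino acid transporter gene, had 2.96, 0.69 and 2.08, and Kcnk3, a potassium channel gene, had 1.31, 0.36 and 1.52. Zic1 had -0.25 ± 0.31 and Dio2 0.18 ± 0.30. Ucp1, the uncoupling protein that defines brown fat, was not tested. It was well above background in both channels on arrays 1 and 3, with ratios of 2.53 and 2.12, and in neither channel on array 2. Elovl3, Gk and Cpn2 were not tested either. Elovl3 had 0.38, 0.18 and 0.70 and Gk had 0.17, 0.27 and 0.48. Both were well above background only in the mFoxO1KO channel of arrays 1 and 3. Cpn2 was well above background in no channel. Cidea was well above background in both channels on all 3 arrays. The summed intensity of the 9 genes was 1580 to 1839 in the controls and 2260 to 3991 in the mFoxO1KO samples, and the part of brown fat in the ratios was not tested.

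Markers of other cells of muscle had medians of 0.12 over 5 endothelial genes, 0.10 over 5 fibroblast genes and 0.16 over 3 macrophage genes, and none of these passed the test. The macrophage marker Mrc1 had -0.04, 0.66 and 0.75, and the endothelial marker Pecam1 had 0.35 ± 0.08 (limma, adjusted p = 0.0607), both chosen after their values were seen. In 3 of the 5 endothelial genes, Pecam1 among them, every mFoxO1KO value lay above every control value, which held for 13.9% of all genes. The summed intensities of these lists overlapped between the genotypes in each case. The summed intensity of the 15 fibre markers did not overlap. It ran from 1016380 to 1040590 in the controls and from 1041270 to 1114870 in the mFoxO1KO samples. Of these fibre markers 1 rose and 1 fell, against 2.06% and 0.699% of all genes. The myoglobin gene Mb rose (0.57 ± 0.14) and the myosin light chain gene Myl1 fell (-0.60 ± 0.09). Neither Mb nor Myl1 passed without array 2 (limma, adjusted p of 0.178 and 0.134) or without array 3 (0.0568 and 0.0715). Mb did not pass without array 1 either (0.0613).

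The wider droplet and lipolysis pathway was examined through 44 further genes for triglyceride synthesis, droplet formation, lipase cofactors and hormonal control of lipolysis, of which 41 were tested. One of the 41 rose, a share near the 2.06% of all genes that did, and none fell. The median was 0.10 against 0.01 over all genes. The gene that rose was Dgat2, which adds the last fatty acid to triglyceride. It had 1.08, 0.60 and 1.39, with a mean of 1.02 ± 0.39 (limma, adjusted p = 0.0493), and did not pass without array 1, 2 or 3 (adjusted p of 0.0808, 0.0744 and 0.0752).

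Of the other genes nearest the threshold, Gpat3, which starts glycerolipid synthesis, had 0.51 ± 0.22 (limma, adjusted p = 0.0662). Dgat1, the other enzyme of the last step, had 1.05, 0.29 and 0.80 (adjusted p = 0.0781), and Acsl1, which activates fatty acids, had 0.79, 0.26 and 0.47. Pde3b, the phosphodiesterase through which insulin restrains lipolysis, had 2.37, 0.38 and 1.88, a spread over the arrays like that of Cidec. Plin1 and the receptor gene Adrb3 are on this list and also on the white adipocyte list.

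Some regulators of lipolysis on this list had ratios close to 0, chosen here for that. Abhd5, the coactivator of Pnpla2, had 0.05 ± 0.08 and Hilpda, an inhibitor of Pnpla2, -0.04 ± 0.08. Prkaca, a catalytic subunit of the kinase that switches lipolysis on, had 0.06 ± 0.01. Its level was low, 7.30 to 7.50 log2 units in the controls. The Prkaca ratio was 0.11 without background subtraction and -0.04 with the software's processed signals. A ratio that misses the threshold does not show that a gene was unaltered.

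**Figure D4:**
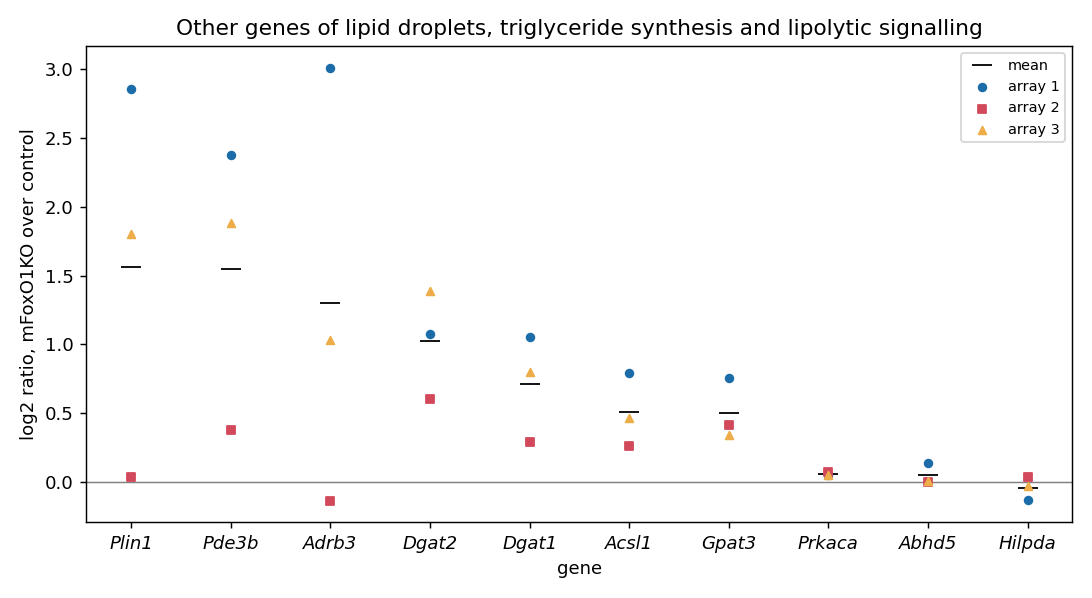
Log2 ratio of mFoxO1KO over control (vertical axis) on each array (points) and mean (bar) for the 10 pathway genes described in the text, of 41 tested, ordered by mean. Plin1, Pde3b and Adrb3 were high on array 1 and low on array 2, while Dgat2 lay between 0.60 and 1.39 on all arrays.

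PPARs and genes known to respond to them or to fasting formed a second list, since Plin2 and Plin5 are among the known PPAR targets. Of the 22 genes tested 2 rose (against 2.06% of all genes) and none fell. There were 21 means above 0 (51.7% of all genes had one), with a median of 0.21. The gene below 0 was Pdk4, a pyruvate dehydrogenase kinase gene (-0.33, -0.78 and -0.14). Ppara, the receptor gene of fatty acid catabolism, had 0.77, 0.90 and 0.94, nearly the same on every array (0.87 ± 0.09, limma adjusted p = 0.0178). It did not pass without array 2 (adjusted p = 0.106). Ppargc1a, a coactivator gene of the same receptors, had its highest value on array 2 (1.08, 1.95 and 1.01) and did not pass without array 1, 2 or 3 (limma, adjusted p of 0.0566, 0.0646 and 0.0626). Ucp3, a mitochondrial carrier gene of muscle, had 0.51 ± 0.16 (adjusted p = 0.0504), and Angptl4, an inhibitor of lipoprotein lipase, had 1.51, 0.55 and 0.57 (adjusted p = 0.0916). Vnn1 had 0.98 ± 0.52. Pparg, the receptor of fat cells and a white adipocyte marker here, had 1.43, 0.22 and 0.59.

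Genes outside the 10 with the most similar 3 ratios were sought for each of them, by the smallest Euclidean distance over the 3 arrays. For Cidec they were Slc36a2 (distance 0.22), Cyp2e1 (0.23) and Scd1 (0.31). For Cidea none was close: Pck1, Cfd and Slc36a2 came nearest at 2.23, 2.27 and 2.29. For Plin5 the nearest were Gramd1b (0.04) and Aldh1a1 (0.06), both of which rose. For Plin2 they were Gm13889 (0.14), Tph1 (0.33) and Apoe (0.40). Small ratios have many near neighbours, so a short distance says little for genes such as Plin4 or Pnpla2. Among the 10 genes the closest pair was Pnpla2 and Lipe (0.22), followed by Plin3 and Plin4 (0.28) and by G0s2 and Mgll (0.30).

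**Figure D5:**
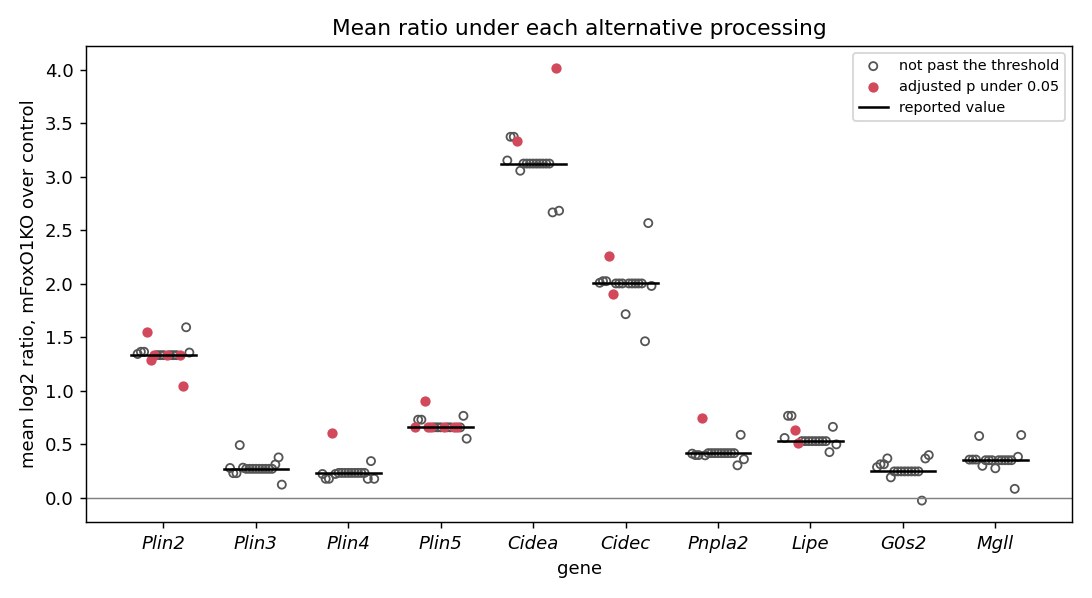
Mean log2 ratio of mFoxO1KO over control (vertical axis) for each of the 10 genes under the alternative analyses (points, filled where the adjusted p was under 0.05) and as reported (bar). Every value was above 0 except that of G0s2 without array 1 (-0.02), and 7 of the 10 genes passed the threshold in at least 1 alternative. Alternatives that changed only the filter, the variance model or the separate-channel fit keep the reported ratio.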

How the data were processed

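The deposited files hold, per the file headers, unprocessed median intensity values of every spot and of the background around it for Cy3 and Cy5, processed intensity values, and a log10 ratio of Cy5 over Cy3. Agilent Feature Extraction made them, version 11.5.1.1 per the file headers and 9.3.2.1 per the submitters' processing notes. All arrays were on 1 slide in 1 scan batch. Background was corrected by normexp (offset 50) on median signals (mean signals were not used here) and arrays were normalised by loess, with limma 3.58.1 in R 4.3.3. Outlier spots were left out. A probe had to be well above background in 1 channel on all 3 arrays, and the brightest probe of a gene was used. Of 39429 probes 69.77% took a symbol from RefSeq (GRCm38.p6). The other probes kept their accessions. Values per RNA came from Aquantile normalisation across arrays. Ratios were tested against 0 with an intercept-only limma fit (lmFit, eBayes, two-sided), Benjamini-Hochberg adjusted over 17454 genes. The fit was tested on simulated data.

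The 10 genes and all lists were chosen with earlier results of these data known. Named were the 10 genes, list members past the threshold and up to 4 more of each list by smallest p, and the 3 most similar genes, some of which are not reported here. Alternatives covered background, normalisation, filter, probe choice, variance model, separate channels and each array left out. The pairing of the 2 RNAs of an array comes from the shared array.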

Additional observations from a re-analysis of the deposited data

How the results depend on the processing

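The 10 genes had mean ratios above 0 in every alternative that tested them, except G0s2, which ran from -0.025 without array 1 to 0.40 without array 3. Alternatives that changed only the filter, the variance model or the separate-channel fit kept the reported ratios of these genes, as did testing every probe. In those the signs could not differ. The software's processed signals and the deposited log ratios gave the same values, so they are not separate checks. Counts past the threshold depended strongly on the settings. Against 481 genes and 1 of the 10 in the reported analysis, there were 200 genes and 0 of the 10 with the software's processed signals, and 200 and 0 with the deposited log ratios. Median centring gave 1202 genes (95.8% higher, against 74.6%) and 7 of the 10, and it raised the median of all genes to 0.16, below the lowest of the 10 (0.37). Scaling between arrays gave 826 and 4, and no filter on dim probes 746 and 2. Requiring both channels above background gave 55 and 0, and only genes above the median intensity 9 and 0 of 8 tested. The mean of a gene's probes left 0 of the 10, and testing every probe 2. With a trended, robust variance in limma 0 genes and 0 of the 10 passed (4954 and 6 at an unadjusted p under 0.05), and without variance moderation 0 and 0 (3120 and 1). Separate channels with the array as replicate block repeat the reported fit by construction (481 and 1), and without the block gave 209 and 2. Leaving out 1 array gave 49 to 402 genes and 0 to 1 of the 10, namely Plin2 without array 1, Cidea without array 2 and none without array 3. Without array 2 there were 49 genes and without array 3 there were 157. The cause of these differences was not tested, beyond the smaller number of arrays or genes. Signal over background was low for several genes named here, among them Lipe, G0s2, Vnn1, Kcnk3 and Slc27a2. Slc27a2 was not well above background in every control. With the software's processed signals the mean ratio of Vnn1 was 2.06 instead of 0.98, and that of Kcnk3 1.90 instead of 1.06. Lipe had 0.77 instead of 0.53, and G0s2 0.31 instead of 0.25.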
